A study of Mus musculus with 6 samples.

Results

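The secreted Wnt modulators described here are 10 genes, of which 8 encode inhibitors (Sfrp1, Sfrp2, Sfrp4, Frzb, Dkk1, Dkk2, Dkk3 and Wif1) and 2 encode R-spondins (Rspo2 and Rspo3). They were taken by gene symbol from the platform annotation, and each had a single-gene probe set of its own among the 30668 genes measured. Bone marrow stromal cells (BMSCs), the adherent marrow cells that can give rise to bone, fat and cartilage cells, were taken from the femurs of mice of 18 months and of 3 months, with 3 Affymetrix arrays for each age. In both ages the cells were sorted as Sca-1+ CD29+ CD45- CD11b- and expanded in culture beyond passage 1, so the RNA is that of cultured and not of freshly isolated cells. Strain, sex and genotype are not given in the labels used here, and the arrays of an age are called biological replicates without a statement that each came from its own animal. The p-values therefore set the difference between the ages against the spread between these arrays, which may not be the spread between animals.

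Wnt proteins signal through Frizzled receptors and the co-receptors Lrp5 and Lrp6, which stabilises beta-catenin and switches on target genes. Secreted frizzled-related proteins (the Sfrp genes and Frzb) and Wif1 bind Wnt proteins outside the cell, and Dickkopf proteins such as Dkk1 occupy the co-receptors. R-spondins act in the opposite sense: they bind Lgr receptors and the ubiquitin ligases Znrf3 and Rnf43, which otherwise remove Frizzled from the cell surface. In bone, Wnt signalling promotes osteoblast formation, and the secreted inhibitors restrain it.

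The promoters of Dkk1 and Frzb are shown because these were the members with an entry in the RefSeq promoter table (GRCm38.p6) that were higher in 18-month cells past the test described below, Frzb only with no filter on low values. The table held 5 of the 10 members, the others with an entry, Sfrp2, Dkk2 and Wif1, did not pass. Each line gives the 250 bases before the annotated start, 5′ to 3′ along the gene, for Dkk1 from the minus strand of chr19:30549497-30549746 and for Frzb from the minus strand of chr2:80447397-80447646. Capitals mark CTTTGAA, a core of the sites that the TCF/LEF factors of beta-catenin bind.
Dkk1: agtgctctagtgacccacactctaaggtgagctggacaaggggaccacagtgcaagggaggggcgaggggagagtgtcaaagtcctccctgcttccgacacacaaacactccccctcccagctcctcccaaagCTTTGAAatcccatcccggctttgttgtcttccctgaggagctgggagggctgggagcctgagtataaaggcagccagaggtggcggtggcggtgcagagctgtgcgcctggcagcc
Frzb: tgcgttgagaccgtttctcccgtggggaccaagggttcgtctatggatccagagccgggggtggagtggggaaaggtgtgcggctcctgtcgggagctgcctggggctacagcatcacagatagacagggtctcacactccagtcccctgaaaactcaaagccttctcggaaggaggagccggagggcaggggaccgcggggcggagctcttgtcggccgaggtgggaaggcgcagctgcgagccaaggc

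The search covered both strands for CTTTGAT and CTTTGAA. Dkk1 held 1 match, CTTTGAA on the strand shown, with its first base 117 bases before the start. At least 1 of CTTTGAT and CTTTGAA lay in 7.48% of the 32851 promoter windows of the same length. The windows of Frzb, Sfrp2, Dkk2 and Wif1 held neither, and a match or its lack is a description of the sequence only.

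The values are log2 expression values as deposited, and all differences are 18 months minus 3 months on that scale. Array medians lay between 5.39 and 5.44, and Pearson's r across genes was 0.999 between 18-month arrays, 0.995 to 0.998 between 3-month arrays and 0.976 to 0.978 between the ages (genes are not independent replicates). The values carry no detection calls. Of the negative control probe sets 95% had means below 7.61, and a value under 7.61 is described here as within the negative control range. No fold is given where either mean is. Background probes that match no mouse sequence reached 9.11 in 18-month and 8.87 in 3-month arrays in the class with 23 G or C bases, so a value above 7.61 may still be background. The differences of these background classes ran from 0.01 to 0.29. Single negative control probe sets differed more widely, from -2.36 to 1.86, with a median of -0.26. Among the members only the difference of Sfrp1 lay outside that wider range. The 18-month means of Sfrp1 and Rspo2 lay above the negative control range. The 18-month means of the other 8 members, and the 3-month means of all 10, lay within it. Levels of different probe sets are not comparable on an array, so for the members only differences are set side by side. The sums of marker lists given below add such levels and are compared between arrays only.

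Inhibitors and R-spondins did not move in opposite directions. Sfrp1, Sfrp4, Rspo2 and Rspo3 were higher in 18-month cells by 0.81 to 1.95, Frzb and Dkk1 were higher by 0.33 and 0.21, and no member was lower past the test. With all 30668 genes tested, 6 of the 10 members were higher (limma, Benjamini-Hochberg adjusted p under 0.05), 4 of 8 inhibitors and 2 of 2 R-spondins. In that test 12.1% of all genes were higher and 14.4% lower. The members were chosen with earlier results of these data known, so these shares are set side by side as description only. Outside the 10, 2 of 9 further inhibitors and 0 of 2 further R-spondins were higher in the same test. The median difference was 0.27 over the members and 0.17 over the inhibitors, beside 0.01 over all genes measured and 0.11 over the background classes. The difference of Rspo2, 1.68, lay below that of Sfrp1 alone among the inhibitors, and that of Rspo3, 0.81, below those of Sfrp1 and Sfrp4.

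The reported test left out genes whose mean over the 6 arrays was below the median of all transcript clusters, 5.40, and kept 20162 genes. It kept 8 members and left out Frzb and Dkk2. Rspo3 passed the filter through its 18-month arrays alone, since its 3-month values were all below 5.40. Among the 8 kept, 5 were higher, 0 were lower and 3 did not pass, where 18.4% of the genes tested were higher and 22.1% lower. The background split depended on the scaling, with 3717 genes higher and 4461 lower as deposited, and 5926 higher and 2873 lower after each array was centred on its positive controls.

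**Figure D1:**
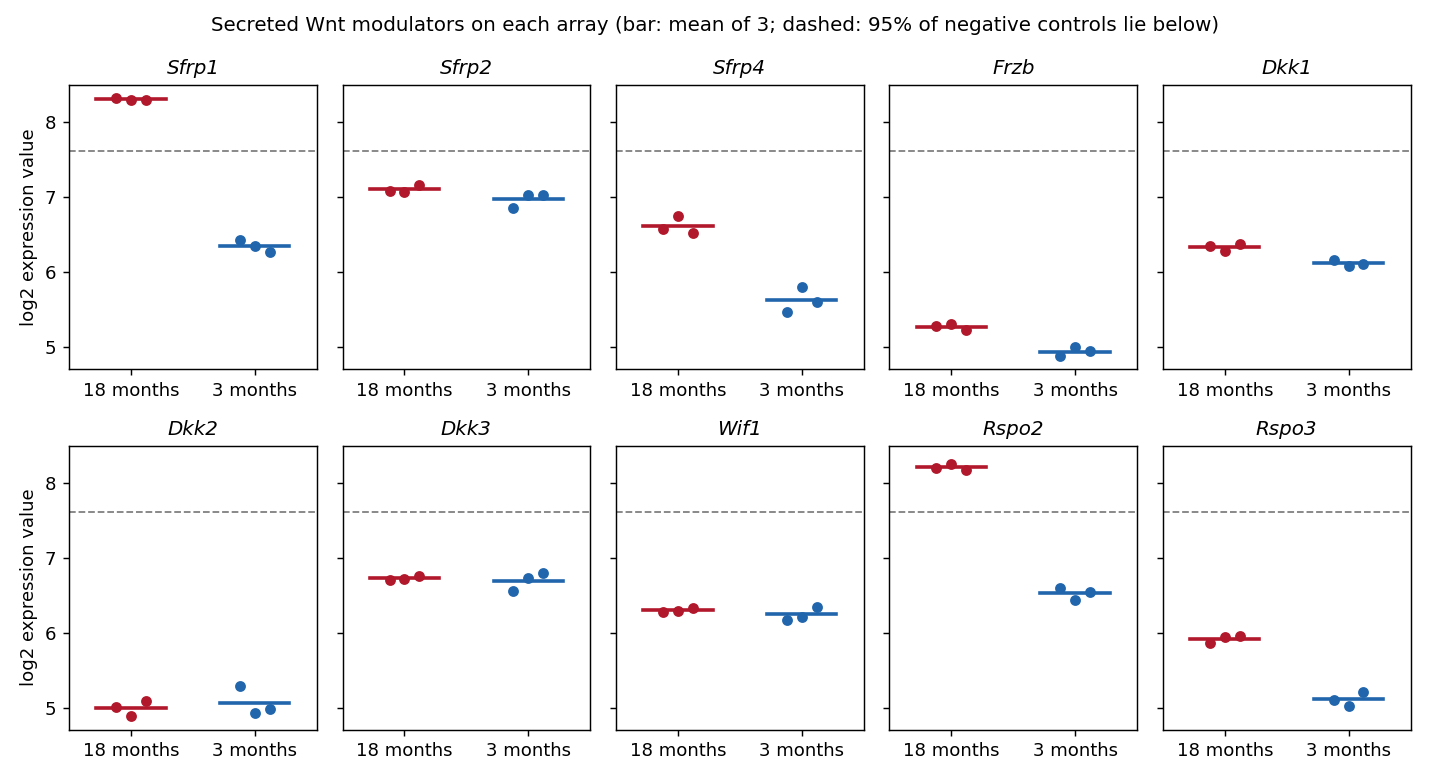
Log2 expression value of each of the 10 genes on each array, with 18-month arrays in red, 3-month arrays in blue, bars at the means of 3 arrays and a dashed line at 7.61, below which 95% of negative controls lay. Sfrp1 and Rspo2 cross the dashed line in the 18-month arrays, and the 2 ages stand apart in 7 of the 10 panels.

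Sfrp1, a soluble Wnt-binding protein that limits osteoblast numbers in mouse bone, had values of 8.32, 8.29 and 8.29 in 18-month arrays, against 6.43, 6.35 and 6.26 in 3-month arrays. The 3-month arrays all lay far below the 18-month arrays. Its mean was 8.30 ± 0.02 in 18-month cells and 6.35 ± 0.09 in 3-month cells (SD, n = 3 each), a difference of 1.95 with a 95% confidence interval from 1.83 to 2.07 (limma, adjusted p = 1.97e-08). Among the 20162 genes tested 0.595% had a larger difference.

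Sfrp4, the family member whose loss causes Pyle's bone disease in humans, had values of 6.58, 6.74 and 6.51 in 18-month arrays, against 5.47, 5.79 and 5.61 in 3-month arrays. The ages did not overlap, though all values lay within the negative control range. Sfrp4 was higher by 0.99, with an interval from 0.77 to 1.20 (limma, adjusted p = 4.12e-05), and 2.06% of the genes tested had a larger difference.

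Frzb, a Wnt-binding protein best known from cartilage, had values of 5.28, 5.31 and 5.23 in 18-month arrays, against 4.88, 4.995 and 4.94 in 3-month arrays. Every 18-month array lay above every 3-month array, at levels below the filter. In the test with no filter its difference of 0.33 passed (limma, adjusted p = 0.00357), with an interval from 0.19 to 0.47 that reaches into the range of the background classes.

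Sfrp2, also a soluble Wnt-binding protein, had values of 7.08, 7.06 and 7.16 in 18-month arrays, against 6.85, 7.02 and 7.02 in 3-month arrays. The lowest 18-month array lay just above the highest 3-month array. The difference of 0.13 did not pass, with an interval from -0.0045 to 0.27 (limma, adjusted p = 0.118). It passed after each array was centred on its positive controls, at 0.23 (limma, adjusted p = 0.0451).

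Dkk1, the Dickkopf protein that blocks Lrp5 and Lrp6 and is itself a target of beta-catenin, had values of 6.34, 6.27 and 6.37 in 18-month arrays, against 6.15, 6.08 and 6.11 in 3-month arrays. The ages did not overlap. Dkk1 was higher by 0.21, with an interval from 0.09 to 0.33 (limma, adjusted p = 0.0116). This size is within the range of the background classes, and the call was lost without 18-month replicate 1 (limma, adjusted p = 0.0553), without 18-month replicate 3 (0.0573) and without 3-month replicate 2 (0.0506).

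Dkk2, a Dickkopf protein that binds the same co-receptors, had values of 5.01, 4.89 and 5.09 in 18-month arrays, against 5.30, 4.93 and 4.98 in 3-month arrays. The first 3-month array was the highest of the 6 and the ages overlapped. The difference was -0.07, with an interval from -0.31 to 0.17 in the test with no filter (limma, adjusted p = 0.713). Its sign rested on that array: without 3-month replicate 1 the difference was 0.04, and after centring on positive controls it was 0.03.

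Dkk3, a divergent Dickkopf protein whose part in Wnt signalling is less settled, had values of 6.70, 6.72 and 6.76 in 18-month arrays, against 6.56, 6.73 and 6.80 in 3-month arrays. All 18-month values fell inside the 3-month range. The difference was 0.03, with an interval from -0.12 to 0.19 (limma, adjusted p = 0.762).

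Wif1, which carries the WIF domain that binds Wnt proteins, had values of 6.27, 6.29 and 6.33 in 18-month arrays, against 6.17, 6.21 and 6.35 in 3-month arrays. Here too the 18-month values fell inside the 3-month range. The difference was 0.05, with an interval from -0.09 to 0.19 (limma, adjusted p = 0.569). For Dkk2, Dkk3 and Wif1 the intervals leave out a rise of the size seen for Sfrp1, Sfrp4 or either R-spondin, on the scale of the deposited values and at levels within the negative control range.

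Rspo2, an R-spondin that strengthens Wnt signalling in developing limb and in bone-forming cells, had values of 8.20, 8.24 and 8.18 in 18-month arrays, against 6.60, 6.44 and 6.54 in 3-month arrays. As for Sfrp1, the 18-month arrays lay above the negative control range and the 3-month arrays within it. Its mean was 8.21 ± 0.04 in 18-month cells and 6.53 ± 0.08 in 3-month cells (SD, n = 3 each). The difference of 1.68 had an interval from 1.56 to 1.80 (limma, adjusted p = 4.73e-08), and 0.799% of the genes tested had a larger one.

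Rspo3, the R-spondin known for its part in blood vessel development and, in human genetics, bone density, had values of 5.86, 5.94 and 5.95 in 18-month arrays, against 5.11, 5.02 and 5.22 in 3-month arrays. The ages did not overlap and both lay within the negative control range. Rspo3 was higher by 0.81, with an interval from 0.65 to 0.96 (limma, adjusted p = 2.06e-05), and 2.92% of the genes tested had a larger difference.

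In these bulk samples, more cells that express a gene and more RNA per cell cannot be told apart. The labels do not say which samples were cultured or hybridised together, and such a batch and age cannot be told apart either. With 3 arrays against 3 the smallest two-sided p of an exact permutation test is 0.1, and the calls therefore come from the moderated model across genes.

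**Figure D2:**
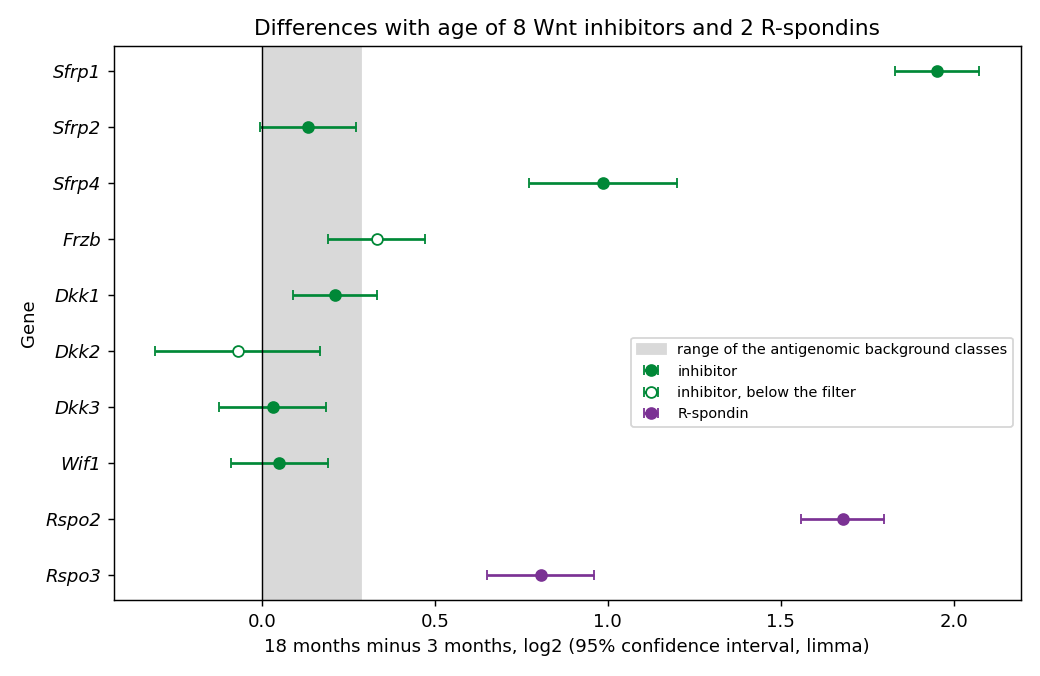
Difference of each gene between 18-month and 3-month arrays on the log2 scale, with 95% confidence intervals from limma, inhibitors in green and R-spondins in purple, open points for the 2 genes below the filter (from the test with no filter), and the range of the background classes, 0.01 to 0.29, in grey. Sfrp1, Sfrp4, Rspo2 and Rspo3 lie wholly to the right of that range, and Dkk1 lies inside it with its mean. Differences of single negative control probe sets, which ran from -2.36 to 1.86, are not drawn.

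In 7 of the 10 members every 18-month array lay above every 3-month array, in 0 every array lay below, and Dkk2, Dkk3 and Wif1 overlapped. Of all 30668 genes measured 5911 (19.3%) had every 18-month array above, and 6074 had every 18-month array below. The SFRP group held 4 of these 7, the Dickkopf group 1 and the R-spondins 2. Within the SFRP group the differences ran from 0.13 to 1.95, within the Dickkopf group from -0.07 to 0.21.

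Most other secreted regulators outside the 10 lay within the negative control range and did not pass. Of 9 further inhibitors 8 were tested, 2 were higher and 0 lower, where 18.4% of all genes tested were higher and 22.1% lower. Their median difference was 0.12, beside 0.01 over all genes and 0.11 over the background classes. Igfbp4, an insulin-like growth factor binding protein that also binds Lrp6, had means of 10.05 ± 0.01 in 18-month cells and 9.60 ± 0.04 in 3-month cells (SD, n = 3 each) and was 1.37-fold higher (limma, adjusted p = 5.88e-06). Draxin, an axon guidance protein that binds the co-receptors, was higher by 0.35 within the negative control range (limma, adjusted p = 0.00163). Sost, the sclerostin gene of osteocytes, was at 6.33 in 18-month and 6.25 in 3-month cells (limma, adjusted p = 0.615). Rspo1 and Rspo4, the remaining R-spondins, did not pass, with differences of -0.08 and 0.10.

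Some receptors for these secreted proteins were higher and some lower. Of 25 receptor and co-receptor genes measured, 22 were tested, 6 were higher, 7 lower and 9 did not pass, with a median difference over the 25 of 0.06; of all genes tested 18.4% were higher and 22.1% lower. The co-receptors on which Dickkopf proteins act fell a little: Lrp5 had means of 8.71 in 18-month and 8.96 in 3-month cells, a difference of -0.25 (limma, adjusted p = 0.00421), and Lrp6 of 10.35 and 10.56 in the same order, a difference of -0.21 (limma, adjusted p = 0.00268). Kremen1, the receptor that takes up Lrp6 together with Dkk1, was 1.34-fold higher (limma, adjusted p = 0.000229).

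On the R-spondin side, Lgr4, an R-spondin receptor, fell by 0.19 (limma, adjusted p = 0.00535). Znrf3, the ubiquitin ligase that R-spondins silence, had means of 8.20 ± 0.04 in 18-month cells and 8.68 ± 0.09 in 3-month cells (SD, n = 3 each) and fell by 0.48 (limma, adjusted p = 9.33e-05). Lgr5 was at 4.70 in 18-month and 4.66 in 3-month cells, below the filter, and Lgr6 did not pass (limma, adjusted p = 0.0818). Rnf43 had no single-gene probe set and was not analysed here. The differences of Lrp5, Lrp6 and Lgr4 were smaller in size than the widest difference of the background classes, 0.29, which ran the other way. The median differences of negative and positive control probe sets, -0.26 and -0.15, ran the same way as these 3 genes. Lrp5, Lrp6 and Lgr4 passed under each of the 3 other scalings, but centring on positive controls brought them to -0.15, -0.11 and -0.09.

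Of the 10 Frizzled receptors, which Wnt proteins and the SFRP group bind, 4 were higher, 2 lower and 4 did not pass. Of all genes tested 18.4% were higher and 22.1% lower. Fzd3 fell by 1.09 within the negative control range, with means of 6.23 in 18-month and 7.33 in 3-month cells (limma, adjusted p = 5.44e-06). Fzd6 fell by 0.36, and Fzd8 was higher by 0.54 (limma, adjusted p = 4.01e-05 and 0.00078). The 3-month mean of Fzd8 lay within the negative control range. Fzd1, Fzd2 and Fzd5 were higher by 0.47, 0.25 and 0.31 (limma, adjusted p = 0.00123, 0.0034 and 0.00478). The difference of Fzd2 lay within the range of the background classes, and the interval of Fzd5, from 0.16 to 0.46, reached into it.

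Of 21 ligand and secretion genes 19 were tested, 1 was higher, 1 lower and 17 did not pass, where 18.4% of all genes tested were higher and 22.1% lower. After centring on positive controls 6 were higher and 0 lower, so the count depended on the scaling. Wnt5a, a ligand that mostly acts outside the beta-catenin branch, fell by 0.15 (limma, adjusted p = 0.0168). That call was lost after median centring and after centring on positive controls (limma, adjusted p = 0.0802 and 0.142). Porcn, the acyltransferase that attaches the lipid Wnt proteins need for release, had means of 9.38 ± 0.05 in 18-month cells and 8.21 ± 0.11 in 3-month cells (SD, n = 3 each) and was 2.25-fold higher (limma, adjusted p = 7.89e-07).

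Known targets of beta-catenin included genes that were higher and genes that were lower. Of 11 measured, 10 were tested, 4 were higher, 3 lower and 3 did not pass, with a median difference over the 11 of 0.04; of all genes tested 18.4% were higher and 22.1% lower. Axin2, a feedback inhibitor used widely as a readout of the pathway, had means of 7.79 ± 0.07 in 18-month cells and 7.04 ± 0.15 in 3-month cells (SD, n = 3 each) and was higher by 0.75 (limma, adjusted p = 7.3e-05). Nkd2, which binds Dishevelled and dampens the signal, was higher by 0.51 (limma, adjusted p = 4.84e-05). Nkd1, its relative, did not pass (limma, adjusted p = 0.579). The 3-month mean of Axin2 and both means of Nkd2 and of Nkd1 lay within the negative control range.

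Lef1, a transcription factor that carries beta-catenin to DNA, ran the other way, with means of 7.54 ± 0.09 in 18-month cells and 8.28 ± 0.11 in 3-month cells (SD, n = 3 each). It fell by 0.74 (limma, adjusted p = 2.77e-05). Ccn4, a matricellular protein first found as a Wnt-induced gene, had means of 9.51 ± 0.02 in 18-month cells and 10.25 ± 0.08 in 3-month cells (SD, n = 3 each) and also fell by 0.74 (limma, adjusted p = 1.85e-06). Tnfrsf11b, the decoy receptor osteoprotegerin that osteoblasts make under beta-catenin control, was higher by 2.66, with means of 9.16 ± 0.01 in 18-month cells and 6.49 ± 0.09 in 3-month cells (SD, n = 3 each; limma, adjusted p = 3.21e-09). The 18-month mean of Lef1 and the 3-month mean of Tnfrsf11b lay within the negative control range. Tcf7, Apcdd1 and Ccnd1 had no single-gene probe set and were not analysed here.

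**Figure D3:**
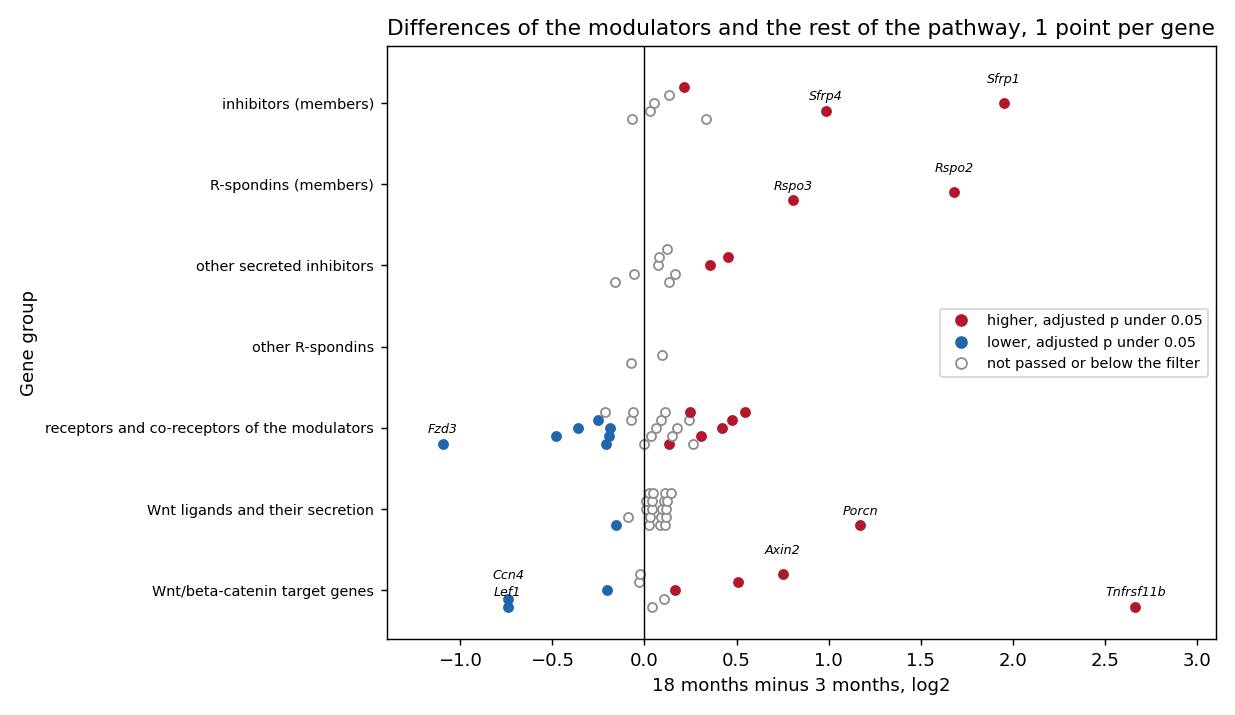
Difference of each gene between 18-month and 3-month arrays on the log2 scale, 1 point per gene, for the inhibitors and R-spondins and for 5 groups of other Wnt pathway genes. Red points were higher and blue points lower past the test, and open points did not pass or lay below the filter; the ligands lie near 0, and receptors and target genes to both sides.

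The labelled cell type was checked against marker genes. Of 12 stromal markers 10 were measured, and Pdgfrb, Prrx1, Vcam1, Cd44, Col1a1, Col3a1 and Itgb1 lay above the negative control range at both ages. Ly6a (Sca-1) and Pdgfra had no single-gene probe set, and Thy1, Eng and Nt5e lay within that range at both ages. All 8 measured markers of blood cells and macrophages also lay within it, with Ptprc (CD45) at 3.62 in 18-month and 3.65 in 3-month cells and Itgam (CD11b) at 5.24 and 5.26 in the same order.

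Marker lists of stromal and other cell types are given by their calls and by the sum of their linear values on each array. Calls are counted among the markers measured, though those below the filter were not tested. Of all genes tested 18.4% were higher and 22.1% lower. A sum over probe sets rests on the brightest of them, so each is also given without the gene that rose most in it. The stromal list ran from 21349 to 21855 in 18-month arrays, against 14523 to 14895 in 3-month arrays, with 6 of 10 higher and 2 lower. Without Col1a1 it ran from 11924 to 12126 in 18-month arrays, against 9026 to 9305 in 3-month arrays.

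Among other mesenchymal cell types, 3 of 6 chondrocyte and joint or tendon markers, of which 5 were tested, were higher (Sox9, Col2a1 and Prg4). That list ran from 2268 to 2338 in 18-month arrays, against 1576 to 1692 in 3-month arrays, and without Sox9 from 918 to 928 in 18-month arrays, against 671 to 696 in 3-month arrays. The 3-month means of Col2a1 and Prg4 lay within the negative control range. Of 6 pericyte and smooth muscle markers 5 were tested and 3 were higher (Acta2, Des and Myl9). Their sum ran from 9486 to 9671 in 18-month arrays, against 7633 to 7946 in 3-month arrays, and without Acta2 from 1608 to 1638 in 18-month arrays, against 861 to 936 in 3-month arrays. Both means of Des lay within the negative control range, and Des did not pass in the test with no filter (limma, adjusted p = 0.0633).

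Of 6 adipocyte markers 2 were higher, Fabp4, a fatty acid carrier, by 2.02 and Pparg, a regulator of fat cell formation, by 0.31. Both means of Fabp4 and the 3-month mean of Pparg lay within the negative control range. Adjusted p-values of Plin1, Lpl and Cebpa were 0.844, 0.374 and 0.112 by limma. Adipoq, below the filter, was at 4.03 in 18-month and 3.88 in 3-month cells. The sum ran from 616 to 636 in 18-month arrays, against 437 to 449 in 3-month arrays, and without Fabp4 from 448 to 463 in 18-month arrays, against 398 to 405 in 3-month arrays.

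In 3 lists the sum was higher in 18-month arrays only through a single gene. Osteoblast and osteocyte markers ran from 770 to 805 in 18-month arrays, against 583 to 597 in 3-month arrays, but without Alpl from 374 to 390 in 18-month arrays, against 415 to 430 in 3-month arrays; of 7 measured Alpl was higher and Bglap lower. Endothelial markers ran from 317 to 324 in 18-month arrays, against 291 to 299 in 3-month arrays, but without Kdr from 220 to 222 in 18-month arrays, against 230 to 237 in 3-month arrays; of 6 Kdr was higher and Tek and Vwf lower. Blood cell markers ran from 466 to 480 in 18-month arrays, against 426 to 441 in 3-month arrays, but without Ly6g, higher by 0.90, from 376 to 380 in 18-month arrays, against 378 to 389 in 3-month arrays. All endothelial and blood cell markers lay within the negative control range. So did all measured osteoblast and osteocyte markers, apart from the 18-month mean of Alpl. The part of other cell types in the differences of the Wnt modulators was not tested.

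**Figure D4:**
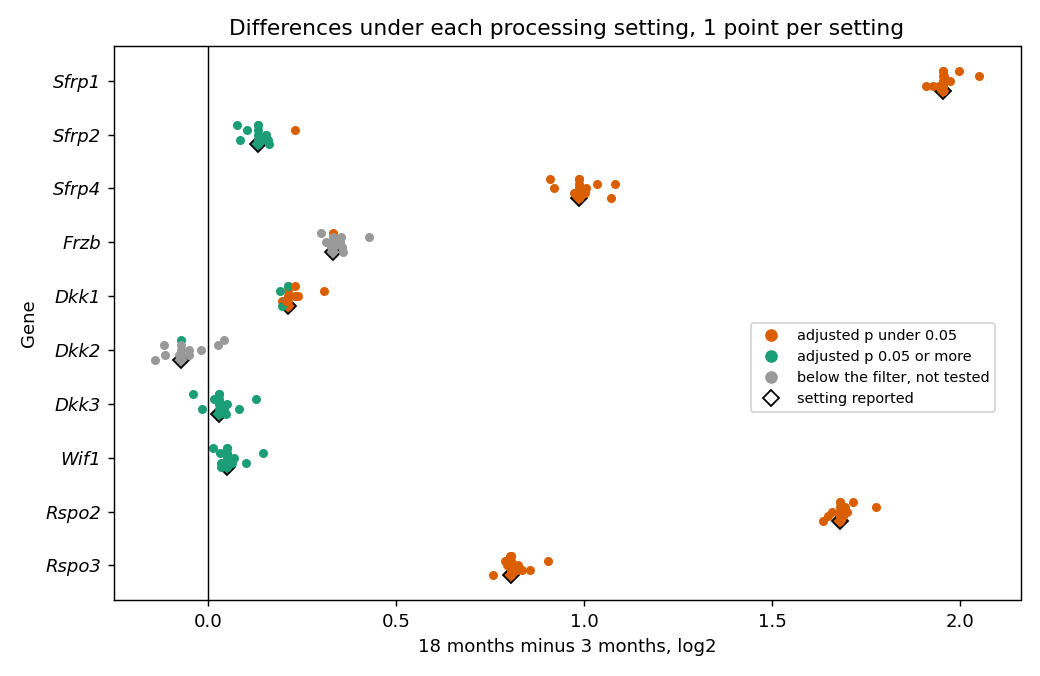
Difference of each gene on the log2 scale under the reported setting (diamonds) and under each other processing setting (dots), coloured by whether the adjusted p was under 0.05. Sfrp1 stayed between 1.91 and 2.05 and Rspo2 between 1.64 and 1.78, while Dkk1 changed colour between settings.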

How the data were processed

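RNA of 6 samples, 3 per age, was hybridised to Affymetrix arrays. The authors' deposited table holds log2 expression values, and the submitters' processing notes name MAS5. How the values were background-corrected and scaled is not given in the labels. Values were used as deposited. Groups and replicate numbers came from sample titles.

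Gene identifiers and older names were brought to current symbols with the RefSeq table (GRCm38.p6). Of 32750 annotated probe sets 31213 had 1 gene and 1537 several. The probe set with the highest mean was kept for each gene, and each member had just 1. The ages were compared by limma 3.58.1 in R 4.3.3 (lmFit, eBayes with an intensity trend) with Benjamini-Hochberg adjustment over all genes tested. Members and gene lists were chosen with earlier results of these data known. Named genes are all members, up to 5 passing genes with the smallest p per pathway list, and a set of receptors, ligands and targets; more are named where a list's calls are given. Same-numbered arrays of the ages did not deviate together (correlations of -0.05, 0.07 and 0.02), so no pairing was used. The number of arrays limits the precision. The test was checked on simulated arrays. Figures were drawn with matplotlib 3.10.9.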

Additional observations from a re-analysis of the deposited data

How the results depend on the processing

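Sfrp1, Sfrp4, Rspo2 and Rspo3 were higher past the test in each of the 15 other settings that kept them, with differences from 1.91 to 2.05, 0.91 to 1.08, 1.64 to 1.78 and 0.76 to 0.90. Keeping only the upper 30% of genes left out all 10 members. Dkk3, which never passed, changed sign after quantile normalization (-0.015) and, with arrays left out in turn, ran from -0.038 to 0.084. Dkk2, which did not pass either, ran from -0.14 to 0.04, above 0 without 3-month replicate 1 and after centring on positive controls. Dkk1 was not called against a minimum difference of 0.3 nor without 3 single arrays, so between 2 and 3 inhibitors were higher when arrays were left out. With the replicate number as a block, 3 inhibitors and 2 R-spondins were higher, and 7716 genes were called beside 8178 without the block; that fit changed no member's call.

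Of all genes, 3717 were higher and 4461 lower. Centring on positive controls, which moved the median gene by 0.10, gave 5926 higher and 2873 lower. Testing against 0.3 gave 1979 calls, 1166 higher and 813 lower. The upper 30% gave 2187 higher and 3544 lower among the 9201 genes it kept. Against 0.3, 1 further inhibitor was higher, 0 receptors were higher and 2 lower, and 0 ligand genes were lower. In the upper 30%, only 1 further inhibitor and 4 target genes were tested, and 1 of each was higher. Ligand genes lower numbered 0 after median centring; after centring on positive controls 6 were higher and 0 lower. With arrays left out in turn, 0 to 1 further inhibitors were lower, 1 to 2 ligand genes higher and 0 to 2 lower. Values within the negative control range limit what the members' levels show. The causes were not tested.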
